A study of Homo sapiens with 2 samples.

Results

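Aminoacyl-tRNA synthetases attach each amino acid to its own tRNA and so supply the ribosome with charged tRNA. The human cell makes most of them as separate cytosolic and mitochondrial enzymes, all encoded in the nucleus, and the name of a mitochondrial enzyme usually ends in 2. The transcription factor ATF4, which is made when amino acids run short or protein folding fails, is known to raise many of the cytosolic synthetases together with genes of amino acid synthesis and uptake. The 36 genes described here were taken by gene name from the count tables, 36 of 58735 listed genes, and all were found. Of these, 20 encode cytosolic enzymes or subunits and 16 mitochondrial ones. The split follows the names: GARS and KARS are known to encode the mitochondrial form of their enzyme as well, and EPRS carries the glutamyl and the prolyl activity in 1 protein.

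RNA sequencing compared BHT101 cells that overexpressed SETDB2, a putative histone H3 lysine 9 methyltransferase, with control cells. BHT101 is a human line derived from an anaplastic thyroid carcinoma, grown in DMEM with 20% fetal bovine serum. Each group held 1 library, so no spread between cultures can be estimated and no test of the condition is possible. The sources used here do not give the vector, the control construct or the time after its introduction. Every interval below is an exact 95% interval for the ratio of a pair of counts and covers counting error only.

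The SETDB2 library held 34053348 counts and the control library 33572025. SETDB2 itself had 1370 counts in the SETDB2 library and 507 in the control, a log2 ratio of 1.43 (1.28 to 1.58). The epithelial keratins KRT8, KRT18, KRT19 and KRT7 lay between 121 and 178 FPKM in the SETDB2 library and between 95.5 and 168 FPKM in the control. Thyroid differentiation markers were mostly near 0, with NKX2-1 at 0 counts in both libraries and TG at 2 and 6. DIO2, which converts thyroid hormone, was the exception with 2397 counts in the SETDB2 library and 1120 in the control. The epithelial cadherin CDH1 was low, at 0.469 and 0.579 FPKM. Leukocyte markers were near 0 too, with PTPRC at 0 counts in the SETDB2 library and 3 in the control. Stromal and endothelial markers summed to 109 CPM in the SETDB2 library and 73.6 CPM in the control, mostly LUM (2126 and 1567 counts) and COL1A1 (1126 and 535), with CDH5 at 0 in both, and their part in the results below was not tested.

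The promoters of the synthetases carried sequence features that the choice of the 36 genes by name did not use. RefSeq promoter windows, from 250 bases before to 50 bases after a start site on GRCh38.p14, were matched for 30 of the 36 genes, with 39 windows in all. The letters TGATGNAA, the core of the element that ATF4 binds together with C/EBP proteins, were searched on both strands. They were found in 7 of the 10 matched genes among the cytosolic enzymes reported elsewhere as ATF4-responsive, in 0 of the 6 matched other cytosolic enzymes and in 1 of the 14 matched mitochondrial enzymes. Of all genes with a listed promoter 4.46% held them. The ATF4-responsive list came from general knowledge and may not be independent of this element, so the contrast is a description. The 8 sites shown are all that were found in the 39 windows, YARS2 being the mitochondrial gene among them. Of the 10 matched genes reported as ATF4-responsive, EPRS, SARS and WARS had windows without these letters. Each is given along the strand on which it reads TGATGNAA, with those 8 letters in capitals.

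AARS, chr16:70289675-70289704, plus strand: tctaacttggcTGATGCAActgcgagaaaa
CARS, chr11:3057407-3057436, plus strand: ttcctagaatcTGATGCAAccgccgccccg
GARS, chr7:30594834-30594863, minus strand: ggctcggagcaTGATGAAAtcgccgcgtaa
IARS, chr9:92293692-92293721, plus strand: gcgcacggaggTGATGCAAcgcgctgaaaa
MARS, chr12:57488053-57488082, minus strand: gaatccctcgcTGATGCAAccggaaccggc
NARS, chr18:57621804-57621833, minus strand: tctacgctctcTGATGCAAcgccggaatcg
TARS, chr5:33440956-33440985, minus strand: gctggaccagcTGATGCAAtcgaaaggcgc
YARS2, chr12:32756076-32756105, minus strand: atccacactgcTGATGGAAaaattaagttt

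In 6 of the 7 cytosolic genes the element read TGATGCAA, and in GARS it read TGATGAAA. The first letter of the site, counted along the gene, lay within 33 bases of the start site in CARS, GARS, IARS, MARS, NARS and TARS, and 187 bases before it in AARS. The mitochondrial gene YARS2 held the variant TGATGGAA at 197 bases before its start. A match of letters is a description of the window and does not show binding.

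WARS, the tryptophanyl-tRNA synthetase, differs from the others in that interferon-gamma is known to induce it. RefSeq gave it 2 windows. The window around the more downstream start, inside the gene, held the core of the interferon response element, the letters GAAA and again GAAA after a gap of 2 letters, 55 bases before the start and the STAT letters TTCNNNGAA 142 bases before it. It is shown in full because it is the window of the enzyme with the lowest ratio, with both motifs in capitals.

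WARS, chr14:100375298-100375597, minus strand: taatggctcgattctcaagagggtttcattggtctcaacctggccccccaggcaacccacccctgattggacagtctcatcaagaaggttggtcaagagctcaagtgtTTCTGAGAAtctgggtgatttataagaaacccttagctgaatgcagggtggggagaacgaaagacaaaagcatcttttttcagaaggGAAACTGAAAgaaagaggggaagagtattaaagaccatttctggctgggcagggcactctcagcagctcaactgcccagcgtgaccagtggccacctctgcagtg

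Of all genes with a listed promoter 4.38% held the interferon response core and 9.38% held TTCNNNGAA, on either strand. The only other synthetase windows with the interferon response core were the 2 of the mitochondrial gene EARS2. The letters TTCNNNGAA were also found in windows of CARS, TARS, PARS2 and WARS2. No window of WARS held TGATGNAA.

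In the SETDB2 library the synthetase transcripts were close to the control, and most cytosolic ones were slightly lower. No member was 2-fold apart, against 2.68% of the 14518 genes kept (50 or more counts over both libraries together, and 1 CPM or more in either). Among the 6542 of those with at least 2000 summed counts, a level that all 20 cytosolic members reached, the share was 0.138%. WARS was the sole member with a log2 ratio of at least 0.32 in size and an interval excluding equality, hereafter the small-fold rule, 1 of the 35 members kept. Of all kept genes 10.5% passed that rule as lower and 7.74% as higher. SARS2 did not pass the count filter. Together the 36 genes had 265951 counts, 0.781% of the SETDB2 library, and 280356 counts, 0.835% of the control. The log2 ratio of these sums was -0.08 (-0.09 to -0.07). In bulk RNA, fewer cells with a transcript and less of it per cell cannot be told apart.

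**Figure D1:**
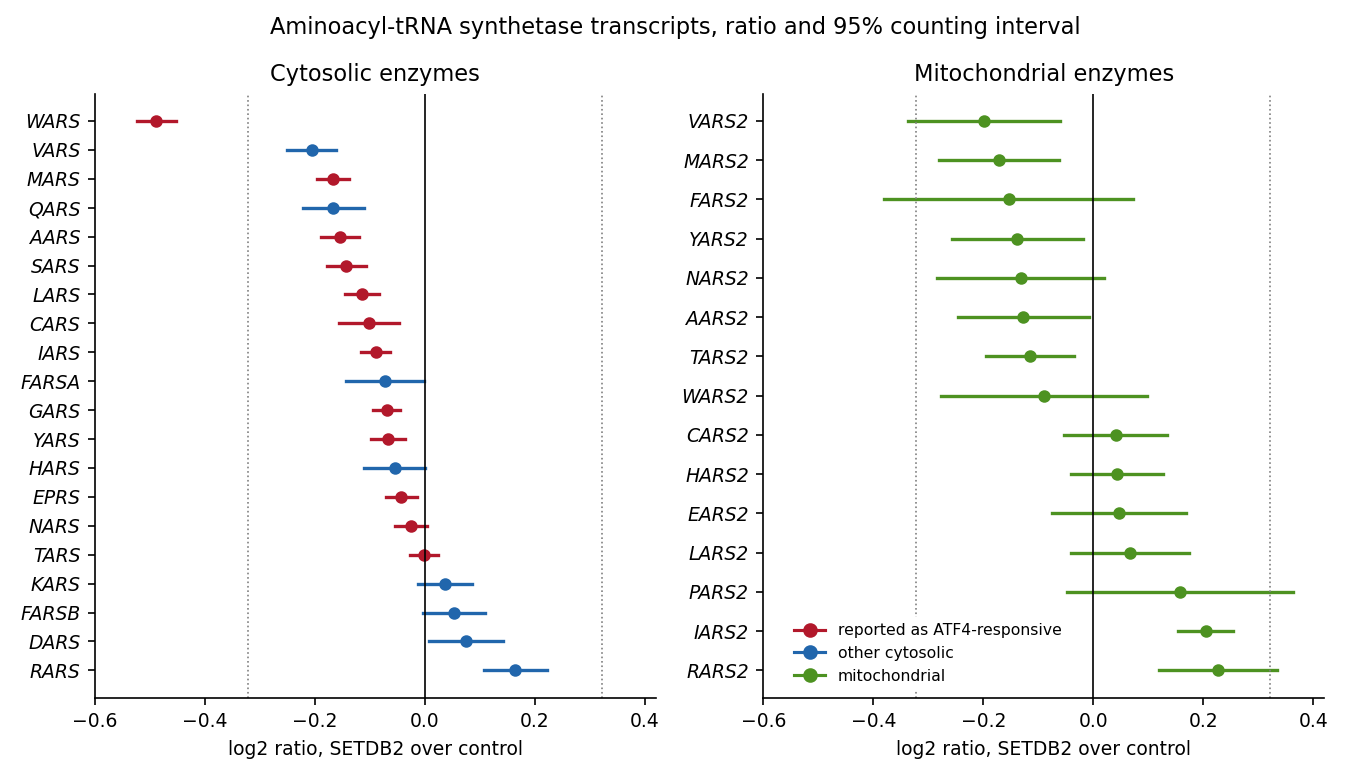
Log2 ratio, SETDB2 over control (horizontal axis), for 20 cytosolic and 15 mitochondrial synthetases, with points for the ratio and bars for the 95% counting interval; dotted lines mark 0.32 on either side of 0. WARS stands alone at -0.49, RARS2 and IARS2 are the highest at 0.23 and 0.20, and SARS2 is not drawn because its counts were too few.

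Among the cytosolic enzymes 16 of 20 lay below 0, where 49.6% of all kept genes did. The median log2 ratio was -0.07, beside 0.00 over all kept genes, whose quartiles were -0.17 and 0.15. The counting interval lay wholly below 0 for 13 of the 20 and wholly above 0 for 2, and over all kept genes these shares were 24.7% and 26.3%. The synthetases are highly expressed, and high counts make intervals narrow. Among the 6542 kept genes with at least 2000 summed counts, 43.9% lay below 0, 26.3% had intervals wholly below 0 and 37% wholly above, the median was 0.02, and 3.67% were lower by the small-fold rule.

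WARS (ENSG00000140105, chromosome 14, 100333788 to 100376805) had 10627 counts in the SETDB2 library and 14840 in the control. The log2 ratio was -0.49 (-0.52 to -0.45), or 1.4-fold lower. Its ratio was lower than that of all but 7.4% of the genes kept. Its place among the 36 members by FPKM was 11 in the SETDB2 library and 9 in the control. Of the pieces of its longest transcript 5.63% were shared with other genes, chiefly WDR25 on the opposite strand, which had 307 and 376 counts.

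The enzymes reported elsewhere as ATF4-responsive were a list of 12 cytosolic genes. All 12 lay below 0, 10 of them with intervals wholly below 0, and the median was -0.10, or -0.09 without WARS. Over all kept genes 49.6% lay below 0 and 24.7% had intervals wholly below 0. Among kept genes with at least 2000 summed counts these shares were 43.9% and 26.3%. The list was chosen with earlier results of these data known, so its count below 0 is a description and not a test. TARS, the threonyl enzyme, was the closest to equality with 23878 counts in the SETDB2 library and 23798 in the control, -0.00 (-0.03 to 0.02), and with DESeq2 or upper quartile scaling it turned to the other side, leaving 11 of 12. NARS, the asparaginyl enzyme, followed with 18992 and 19246 counts, -0.03 (-0.05 to 0.00). The 11 other than WARS lay between -0.17 and -0.00, a narrow range on 1 side of equality.

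Within that list MARS, the methionyl enzyme, had 17585 counts in the SETDB2 library and 19662 in the control, -0.17 (-0.20 to -0.14). AARS, the alanyl enzyme, had 12961 and 14357 counts, -0.15 (-0.19 to -0.12). SARS, the seryl enzyme, had 11895 and 13071 counts, -0.14 (-0.18 to -0.11). The control library was the higher in each of these, by an amount beyond counting error. MARS ends where DDIT3, the gene of the stress factor CHOP, ends on the opposite strand, and 5.97% of its pieces are shared with it. DDIT3 was lower as well, with 947 and 1244 counts, and whether reads were counted by strand is not stated in the labels.

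LARS, the leucyl enzyme, had 15983 counts in the SETDB2 library and 17223 in the control, and IARS, the isoleucyl enzyme, 21776 and 23069. CARS, the cysteinyl enzyme, had 5368 and 5733 counts. These 3 lay between -0.11 and -0.09. The smallest gaps with intervals below 0 were those of GARS, the glycyl enzyme, at -0.07 (25480 and 26611 counts), YARS, the tyrosyl enzyme, at -0.07 (16363 and 17056), and EPRS at -0.04 (19404 and 19894).

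The other 8 cytosolic genes split evenly, 4 below 0 and 4 above, with a median of -0.01. VARS, the valyl enzyme, was the lowest of them with 7645 counts in the SETDB2 library and 8778 in the control, -0.21 (-0.25 to -0.16). QARS, the glutaminyl enzyme, had 4967 and 5550 counts, -0.17 (-0.22 to -0.11). RARS, the arginyl enzyme, was the highest with 5246 and 4660 counts, 0.16 (0.11 to 0.22), and DARS, the aspartyl enzyme, had 3732 and 3528 counts, 0.07 (0.01 to 0.14). Between them lay KARS, the lysyl enzyme, with 6781 and 6585 counts, 0.04 (-0.01 to 0.08), and HARS, the histidyl enzyme, with 5160 and 5335 counts, -0.05 (-0.11 to 0.00). The difference between this group and the ATF4-responsive list was not tested, since 1 library per group allows none.

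The phenylalanyl enzyme is built from equal numbers of the subunits FARSA and FARSB. FARSA had 3145 counts in the SETDB2 library and 3292 in the control, and FARSB had 5123 and 4914. Per length, FARSA stood at 0.849 times FARSB in the SETDB2 library and 0.927 times in the control. The log2 ratio of FARSA over FARSB in the SETDB2 library relative to the control was -0.13 (-0.22 to -0.03), a value that does not depend on library scaling. The GC content of their longest transcripts was 60.3% and 41.6%, and with the trend of the ratio on GC content over all genes subtracted the value turned to 0.06.

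Leucyl, isoleucyl, methionyl, glutaminyl, arginyl, lysyl, aspartyl and glutamyl-prolyl enzymes are held in a multisynthetase complex, and the 8 genes had a median of -0.07 with 5 below 0. The complex also has scaffold proteins. Of their 3 genes AIMP1 had 2908 counts in the SETDB2 library and 2501 in the control, 0.21 (0.13 to 0.29), AIMP2 had 1496 and 1393, 0.10 (-0.01 to 0.20), and EEF1E1 had 357 and 351, 0.02 (-0.20 to 0.23). Of the scaffold genes AIMP1 alone had an interval excluding equality. With the GC trend subtracted AIMP1 came to 0.09, AIMP2 to 0.12 and EEF1E1 turned to -0.10. By catalytic fold, 8 of 9 class I cytosolic genes lay below 0, with a median of -0.11. Of the class II genes 7 of 10 did, with a median of -0.04. EPRS is in neither count because it holds both folds. Of all kept genes 49.6% lay below 0, and 43.9% of those with at least 2000 summed counts did. With the GC trend subtracted the class medians were -0.11 and -0.06, and their difference was not tested.

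The mitochondrial enzymes had no common direction. Of the 15 kept, 8 lay below 0 and 7 above, with a median of -0.09, intervals wholly below 0 for 5 and wholly above 0 for 2. Over all kept genes 49.6% lay below 0, 24.7% had intervals wholly below 0 and 26.3% wholly above. The median and the sum had opposite signs: summed over all 16 genes the counts were 23840 in the SETDB2 library and 23154 in the control, a log2 ratio of 0.04 (0.01 to 0.06). IARS2, the most abundant of them, supplied 6876 and 5941 of those counts.

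RARS2, the mitochondrial arginyl enzyme (chromosome 6, 87514378 to 87590003), had 1537 counts in the SETDB2 library and 1308 in the control, 0.23 (0.12 to 0.33). IARS2, the mitochondrial isoleucyl enzyme (chromosome 1, 220094102 to 220148041), had a ratio of 0.20 (0.15 to 0.25). PARS2, the prolyl enzyme, was next at 0.16, but with 417 and 372 counts its interval ran from -0.05 to 0.36. Of the 15, RARS2 and IARS2 were the pair whose intervals excluded equality on the higher side.

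On the lower side VARS2 had 809 counts in the SETDB2 library and 924 in the control, -0.20 (-0.34 to -0.06), and MARS2 had 1294 and 1451, -0.17 (-0.28 to -0.06). YARS2 (1091 and 1195 counts), AARS2 (1100 and 1196) and TARS2 (2447 and 2638) lay between -0.14 and -0.11 with intervals below 0. FARS2 (308 and 341 counts), NARS2 (682 and 744) and WARS2 (458 and 485) lay between -0.15 and -0.09 with intervals that included equality. Of the pieces of VARS2 29.9% were also found in GTF2H4, a transcription factor subunit gene that overlaps it on the same strand and had 3 and 10 counts, so the VARS2 value is less certain.

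The members nearest to equality among the mitochondrial enzymes were CARS2, HARS2 and EARS2. CARS2 had 1877 counts in the SETDB2 library and 1816 in the control, 0.04 (-0.05 to 0.13). HARS2, which is transcribed away from HARS and shares 13.5% of its pieces with HARS and ZMAT2, had 2354 and 2275 counts, 0.04 (-0.04 to 0.13). EARS2 had 1116 and 1075 counts, 0.05 (-0.07 to 0.17), and LARS2 1455 and 1382, 0.07 (-0.04 to 0.17). EARS2 and the 3 genes of the amidotransferase that makes mitochondrial glutaminyl-tRNA belong to 1 pathway, and QRSL1, GATB and GATC had ratios of 0.12 (0.00 to 0.23), 0.01 (-0.14 to 0.16) and -0.01 (-0.11 to 0.09).

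SARS2, the mitochondrial seryl enzyme (chromosome 19, 38915266 to 38930896), had 19 counts in the SETDB2 library and 11 in the control, far below every other member. Its log2 ratio of 0.76 had an interval of -0.36 to 2.00. Of the pieces of its longest transcript 85.4% were also found in other genes, chiefly AC011455.2, which covers 46.2% of its exonic bases on the same strand, and MRPS12 on the opposite strand. AC011455.2 had 2 counts in each library. The labels do not say how reads that match more than 1 gene were treated, and the part of this overlap in the low count was not tested. Of the 36 members 23 shared no piece with another gene, 10 shared under 10% and 3 shared more (HARS2, VARS2 and SARS2).

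Levels per length differed far more between members than between libraries. The deposited FPKM of the cytosolic enzymes ran from 15.8 (CARS) to 182 (GARS) in the SETDB2 library and from 16.9 (CARS) to 189 (GARS) in the control, with medians of 53.9 and 62.1. For the mitochondrial enzymes kept it ran from 1.88 (FARS2) to 48.8 (IARS2) and from 2.09 (FARS2) to 42.2 (IARS2), with medians of 6.4 and 6.98. The order GARS, NARS, TARS, EPRS, SARS held for the top 5 places in both libraries. The length used is that of all annotated exons together, so a gene with many rare exons, such as CARS at 10037 bases, gets a lower value than its main transcript would.

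**Figure D2:**
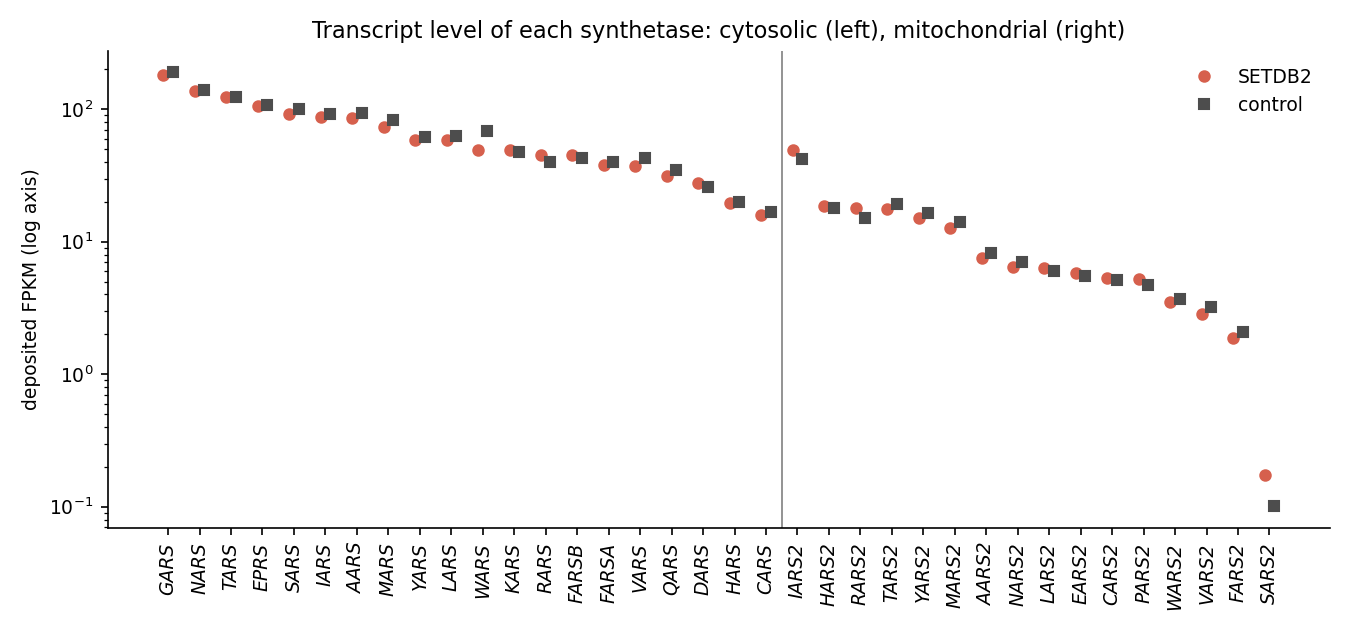
Deposited FPKM (log axis) of the 36 synthetases in the SETDB2 library (circles) and the control library (squares), sorted by level within the cytosolic and mitochondrial groups, 1 library each. The medians were 53.9 and 62.1 for cytosolic enzymes and 6.4 and 6.98 for mitochondrial enzymes, and SARS2 lies far below the rest.

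For 13 amino acids a cytosolic and a mitochondrial enzyme carry the same letter, and the ratio of their counts can be set between libraries without any scaling. The cytosolic over mitochondrial log2 ratio was lower in the SETDB2 library with an interval below 0 for 4 pairs, higher with an interval above 0 for 1 and with an interval including 0 for 8. The median was -0.06 over the 13 pairs. It was -0.04 over the 12 pairs without SARS over SARS2, since SARS2 did not pass the count filter. The 4 pairs were WARS over WARS2 at -0.40 (-0.59 to -0.21), IARS over IARS2 at -0.29 (-0.35 to -0.24), LARS over LARS2 at -0.18 (-0.29 to -0.07) and CARS over CARS2 at -0.14 (-0.25 to -0.03). The pair on the other side was TARS over TARS2 at 0.11 (0.03 to 0.20). With the GC trend subtracted from both genes TARS over TARS2 came to 0.01, while the 4 pairs below 0 came to -0.31 for WARS, -0.30 for IARS, -0.28 for LARS and -0.17 for CARS. RARS over RARS2 was at -0.06 (-0.18 to 0.06), both genes being above 0, and VARS over VARS2 at -0.01 (-0.15 to 0.14), both being below 0. Per length, the cytosolic gene was the more abundant in every pair, from 1.04 times (HARS) to 21.5 times (NARS) in the SETDB2 library and from 1.12 times (HARS) to 19.9 times (NARS) in the control, leaving out SARS2.

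The log2 ratio moved with GC content in these libraries, and the synthetases followed it. Across 10234 kept genes with at least 500 counts, which share the same 2 libraries and are not independent, Spearman's rho between ratio and GC content of the longest transcript was -0.41. Over the 20 cytosolic members it was -0.70 and over the 15 mitochondrial members -0.36. IARS and IARS2 differed in ratio at almost the same GC content, 43.6% and 43.8%. The higher members RARS, DARS and RARS2 had 41.4%, 41.2% and 41.9%, and the lower member VARS had 62.6%. Not all members kept this order: LARS, at 41.5%, had a ratio of -0.11, and WARS2, at 42.4%, had -0.09.

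With the trend over all genes subtracted, WARS was at -0.47, VARS came to -0.08 and RARS to 0.08, RARS2 and IARS2 each to 0.15. FARSA turned to 0.03, and DARS and FARSB to -0.01 and -0.03. All 12 enzymes of the ATF4-responsive list still lay below 0, with a median of -0.11, and the other cytosolic enzymes had a median of -0.02 with 5 of 8 below 0. The mitochondrial median came to -0.03. Whether the trend belongs to the cells or to library preparation cannot be told apart with 1 library each.

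**Figure D3:**
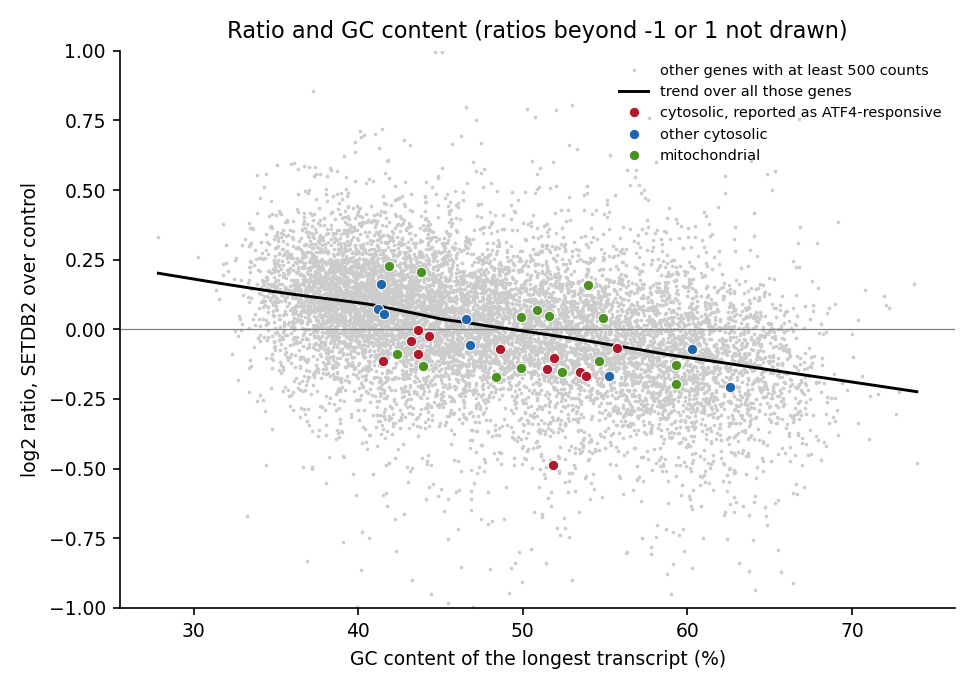
Log2 ratio of SETDB2 over control (vertical axis) against GC content of the longest transcript (horizontal axis) for kept genes with at least 500 counts (grey), with the smoothed trend (line) and the synthetases in colour by group. The 12 ATF4-responsive enzymes lie below the line, WARS at -0.49 farthest, while RARS2 and IARS2 lie above it.

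Other ATF4 targets lay lower than the synthetases by their median, a difference not tested. With the GC trend subtracted the medians were close, -0.13 for these targets and -0.11 for the ATF4-responsive synthetases. The log2 ratios of the summed counts had the other order, -0.10 for these targets and -0.11 for those synthetases. The list held the ATF4 gene and 28 other genes known as its targets, with no synthetase among them. Of the 29 kept, 24 lay below 0, with a median of -0.17. By the small-fold rule 6 were lower and 1 higher (VLDLR, 1128 and 895 counts, 0.33). Of all kept genes 49.6% lay below 0, and by the small-fold rule 10.5% were lower and 7.74% higher. Of the 5 targets above 0, 3 had intervals wholly above 0. These were VLDLR, the cystine transporter gene SLC7A11 (8019 and 6637 counts, 0.27, 0.22 to 0.31) and SLC7A5 (61474 and 60167, 0.02, 0.01 to 0.04). Asparagine synthetase, ASNS, had 689 counts in the SETDB2 library and 1005 in the control, -0.55 (-0.69 to -0.41), and DDIT3 lay at -0.40 (-0.52 to -0.28). TRIB3, a pseudokinase that restrains ATF4, had 8944 and 11477 counts, -0.37 (-0.41 to -0.33), and CTH, the cystathionine gamma-lyase, 1501 and 1891, -0.34 (-0.44 to -0.24). ATF4 itself had 17498 and 18925 counts, -0.12 (-0.15 to -0.09), though its protein is set mainly by translation. XPOT, which exports tRNA from the nucleus, had 25275 and 25948 counts, -0.04 (-0.07 to -0.02).

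The sensor side of that pathway was near equality. Of 11 genes of GCN2, eIF2, eIF2B and their partners none passed the small-fold rule, and the median was -0.01. By that rule 10.5% of all kept genes were lower and 7.74% higher. EIF2AK4, which encodes GCN2, the kinase that senses uncharged tRNA, had 2264 counts in the SETDB2 library and 2293 in the control, -0.02 (-0.11 to 0.06). PPP1R15A, the stress-induced eIF2 phosphatase subunit and itself an ATF4 pathway target, was the lowest at -0.26 (-0.31 to -0.21).

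The interferon-gamma response list, the known setting of WARS induction, lay mostly below 0. Of 23 genes kept of 27, 19 lay below 0, 7 were lower by the small-fold rule and 0 higher, with a median of -0.19. Of all kept genes 49.6% lay below 0, and by the small-fold rule 10.5% were lower and 7.74% higher. The chemokine CXCL11 had 53 counts in the SETDB2 library and 139 in the control, -1.39 (-1.88 to -0.93). HLA-B had 115 and 217 counts, -0.92 (-1.26 to -0.59), the HLA regulators NLRC5 63 and 113, -0.84 (-1.32 to -0.39), and CIITA 46 and 72, -0.65 (-1.22 to -0.10). HLA-B belongs to a family of similar genes whose reads can be shared. IRF1, the factor that binds the interferon response element, had 1553 and 1874 counts, -0.28 (-0.38 to -0.18). WARS, known to respond to interferon-gamma and to ATF4, was not counted in this list, and which of these its ratio goes with was not tested.

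**Figure D4:**
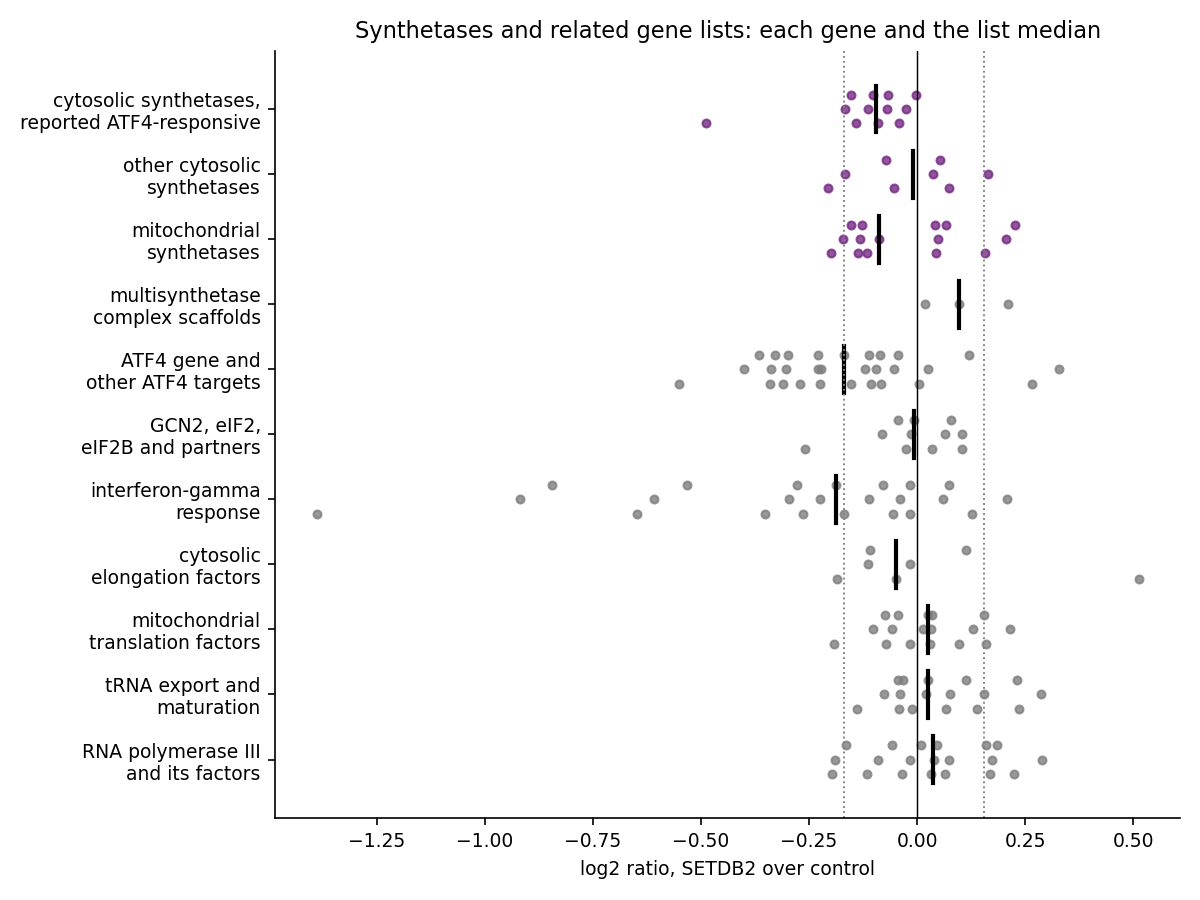
Log2 ratio of SETDB2 over control (horizontal axis) for each kept gene of 3 synthetase groups (purple) and 8 related lists (grey), with a black bar at each median and dotted lines at the quartiles of all kept genes. Medians were -0.10 for ATF4-responsive synthetases, -0.01 for other cytosolic ones, -0.09 for mitochondrial ones, -0.17 for ATF4 and other ATF4 targets and -0.19 for the interferon-gamma response.

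The rest of the charging and translation machinery lay on both sides of equality. Of 17 genes of tRNA export and maturation 7 lay below 0, with a median of 0.03, and of 20 genes of RNA polymerase III and its factors 8 did, with a median of 0.04. Of 17 mitochondrial translation factors 7 lay below 0, with a median of 0.03. None of these 3 lists had a gene past the small-fold rule. Of all kept genes 49.6% lay below 0, and by that rule 10.5% were lower and 7.74% higher. Of 7 kept cytosolic elongation factors 5 lay below 0, with a median of -0.05. The 2 above 0 were EIF5A2, the second eIF5A gene, with 473 counts in the SETDB2 library and 330 in the control, 0.51 (0.31 to 0.72), and EIF5A with 15450 and 14219, 0.11 (0.08 to 0.15). EEF1A1 had 336929 and 362864 counts, -0.11 (-0.12 to -0.11), and EEF2 110231 and 124824, -0.19 (-0.20 to -0.17). Summed over the 8 listed genes the log2 ratio was -0.12 (-0.13 to -0.12), beside -0.09 (-0.10 to -0.09) for the 20 cytosolic synthetases. Among 8 genes related to synthetases, TARSL2, a second threonyl enzyme, had 255 and 183 counts, 0.47 (0.19 to 0.75), and the pseudogene PRORSD1P 50 and 83, -0.73 (-1.27 to -0.21).

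Synthetases with the ATF4 element in a promoter window, printed above, numbered 8. All 8 lay below 0, with a median of -0.10 and a range of -0.17 to -0.00, where 49.6% of all kept genes did. TARS, among them, turned to the other side with DESeq2 or upper quartile scaling. All but YARS2 are also in the ATF4-responsive list, so this is not a separate observation. Of the 21 kept members whose windows lacked the element 11 lay below 0, with a median of -0.04 and a range of -0.49 to 0.23. Among cytosolic enzymes alone the medians were -0.09 for the 7 with the element and -0.05 for the 9 without, and with the GC trend subtracted both were -0.08. DARS, LARS, VARS, YARS, AARS2 and VARS2 had no RefSeq window, and of these 6 members 5 lay below 0, with a median of -0.12, lower than that of the 8 with the element. The contrast by element is a description of the genes with a window only.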

How the data were processed

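The authors deposited whole-number read counts per gene and FPKM values for 1 SETDB2 and 1 control library, with gene length and coordinates in each table. The submitters' processing notes list, with no role, Cuffdiff 2.1.1, Cufflinks 2.1.1, Bowtie2 2.0.6 and TopHat2 2.0.9. The counting program, its strand setting and the genome build were not given in the sources used here. All 58735 gene IDs were in GENCODE 29 (GRCh38), 58724 with the same start and end. Each deposited FPKM equalled count over gene length over 1 constant per library.

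Counts were scaled with TMM factors (edgeR 4.0.16, R 4.3.3). Log2 ratios used a prior count of 0.5, with exact Clopper-Pearson 95% intervals, which cover counting error only (PCR copies included). No test of the condition was run. Size rules of 2-fold and of a log2 ratio of 0.32 (the small-fold rule) also required an interval excluding equality. The ratio code was tested on simulated data. Transcript GC content, a lowess trend and 75-base pieces taken every 10 bases of the longest transcript came from GENCODE 29 sequences, and promoters from RefSeq. Pair ratios were conditional odds ratios (SciPy 1.17.1). DESeq2 1.42.0 gave alternative size factors.

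Members and lists were chosen with earlier results of these data known. The ATF4-responsive list comes from general knowledge. Counts were to be given for members past the small-fold rule and the 3 nearest equality in each group, and for up to 4 genes past the small-fold rule per pathway list. Counts of other members, the order of extremes, and ATF4, XPOT, EIF2AK4, PPP1R15A, VLDLR, IRF1, AIMP1, AIMP2, EEF1E1, QRSL1, GATB and GATC were added after their values were seen. The same holds for EEF1A1, EEF2, EIF5A, SLC7A11 and SLC7A5.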

Additional observations from a re-analysis of the deposited data

How the results depend on the processing

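DESeq2, total-count and upper quartile scaling, a prior count of 2, GC trend subtraction, no count filter and a summed count of at least 200 left the 2-fold count at 0 and WARS alone past the small-fold rule, and its ratio ran from -0.50 to -0.47 over scalings, prior and GC. At 1.5-fold 0 members were lower or higher, where 5.06% of kept genes were lower and 3.04% higher. At 1.1-fold 6 cytosolic members were lower and 1 higher, and 3 mitochondrial members were lower and 2 higher, where 20.4% and 20.3% of kept genes were. Medians ran from -0.08 to -0.06 for cytosolic enzymes, -0.10 to -0.02 for mitochondrial ones (the upper end with SARS2 let in by no filter), -0.11 to -0.08 for the ATF4-responsive list, -0.02 to 0.00 for other cytosolic enzymes, -0.18 to -0.13 for other ATF4 targets and -0.20 to -0.14 for the interferon-gamma list, the FPKM values and leaving out WARS (an alternative added after the data were seen) included. GC trend subtraction put 14 of 36 members outside their counting intervals, the other scalings and the prior 0. Subtracting it from pair ratios, also added after the data were seen, turned FARSA over FARSB from -0.13 to 0.06 and took TARS over TARS2 to 0.01. No paired analysis was possible because each group holds 1 library, and none could be left out. Depth limits the least abundant members: FARS2, WARS2, PARS2 and SARS2, each under 500 counts per library, had intervals that included equality.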
